A study of Drosophila melanogaster with 4 samples.

Results

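The genes of ecdysteroid synthesis and the neuropeptide gene Ptth were followed in RNA from dissected adult intestines of Drosophila melanogaster. They were taken by symbol: 9 were named (nvd, sro, spo, spok, phtm, dib, sad, shd and Ptth), and 8 were found among the 17510 genes of the count table. The identifier of nvd, which encodes the oxygenase that opens the pathway from cholesterol, matched no row, and nvd was not analysed here. The set was chosen by its counts in these same libraries, in which 4 of the enzymes were lower with RNAi, so the comparison of genotypes that follows is a description for these genes and carries no test.

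Ecdysteroids are the steroid hormones that time moulting and metamorphosis and that act in reproduction, gut renewal and metabolism in adult flies. Larvae make ecdysone from dietary sterols in the prothoracic gland, where the brain peptide Ptth acts through the receptor tyrosine kinase Torso to raise the enzymes. A short-chain dehydrogenase and a series of cytochrome P450 enzymes, the Halloween genes, act in order, and the final hydroxylase, Shade, turns circulating ecdysone into the active hormone in peripheral tissues such as gut, Malpighian tubule and fat body. Adults have no prothoracic gland, and the ovary is the best known source of enzyme transcripts.

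The RNAi flies carried, per the labels, a transgenic RNAi construct against CG5789 from the NIG stock collection. The gene is now named Cftr and serves this study as the Drosophila version of the human chloride channel CFTR. The other flies were labelled wild type. There were 2 libraries of each genotype, numbered here in the order of deposit. Guts were sequenced without crop and Malpighian tubules. The driver of the RNAi, the strain of the wild type, and the age, sex and number of flies are not given in the sources used here, and the labels mark no library as holding an empty or unrelated construct. Knockdown and line background therefore cannot be told apart. Whether the 2 libraries of each genotype are from different flies is not stated, so a p-value reflects the spread of these 4 libraries alone, and that spread may be technical.

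Libraries labelled RNAi held 30252763 and 23674485 counts, and wild-type libraries 30537063 and 11294882. Levels are given as CPM, counts scaled by the TMM-adjusted library size, and as RPKM, the same values per kilobase of annotated exon. Cftr itself was at 13.8 and 17.5 CPM in RNAi 1 and 2, against 13.8 and 43.3 CPM in wild type 1 and 2. The targeted gene was thus not lower in RNAi 1 than in wild type 1, and every direction below is for libraries as labelled. The leading principal component of log2 CPM, with 52.6% of the variance, paired RNAi 1 with wild type 1 and RNAi 2 with wild type 2, and values are therefore also given within these pairs. All 11 intestine markers found were detected in every library. They included the trypsin genes alphaTry and betaTry and the enterocyte gene mex1, and their summed level was 33308 to 42059 CPM in RNAi libraries and 42299 to 51642 CPM in wild-type libraries. The most abundant was alphaTry. Single markers differed, with log2 fold changes, RNAi over wild type, between -0.48 and 1.75. The highest was that of Npc1b, with 283 and 513 CPM in RNAi libraries and 90.8 and 145 CPM in wild type. In bulk tissue, fewer cells of a type and less RNA per cell cannot be told apart.

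The 8 genes formed 2 groups by their counts. Both RNAi libraries were below both wild-type libraries for spok, phtm, sad, shd and Ptth. Of the other 3, the genotypes overlapped for sro and spo, and dib was higher with RNAi on 0 to 3 counts per library. All 3 were low in all 4 libraries, which does not set them apart. In both RNAi libraries sro and spo were above spok, phtm and sad. Non-overlap in the lower direction was seen in 12.2% of the 9637 genes tested, and 7 of the 8 genes were among those tested. At least 4-fold lower in both pairs of libraries were 5 of these 7, beside 33 genes, 0.342%, of all those tested. Both counts restate the choice of genes. In addition, spok, phtm and sad passed the filter on low counts through their wild-type libraries alone, so they could enter the fit only by being higher there.

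**Figure D1:**
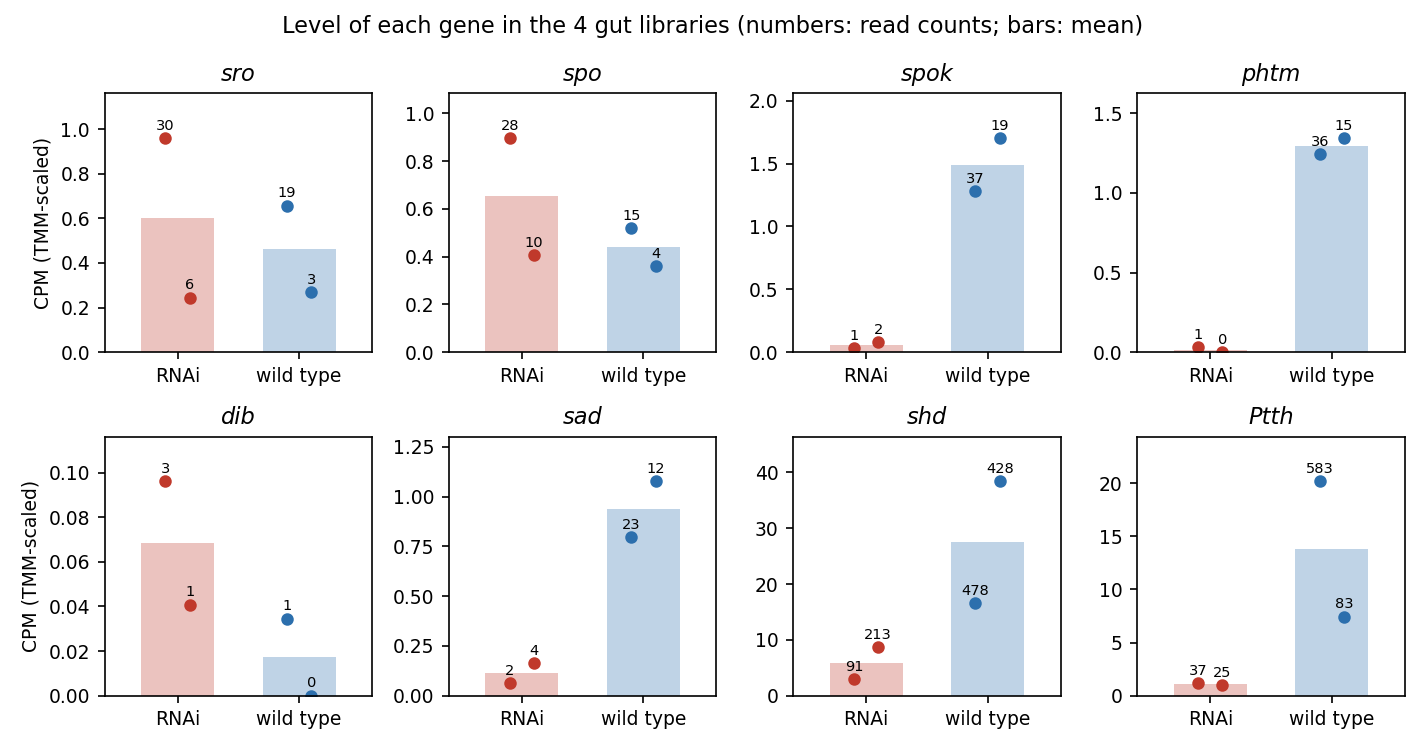
Levels of the 8 genes in CPM (y axis, separate scale for each gene, from 0) in RNAi and wild-type gut libraries. Points are libraries, number 1 on the left of each pair, with raw counts written above them; bars are means of 2 libraries. For spok, phtm, sad, shd and Ptth both RNAi points lie below both wild-type points, while those of sro and spo overlap.

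The early steps of the pathway were represented by sro and by the paralogues spo and spok, which act in the uncharacterised stretch between the first sterol product and the ketodiol. shroud (sro) encodes the short-chain dehydrogenase. It had 30 and 6 counts in RNAi 1 and 2 and 19 and 3 counts in wild type 1 and 2. These are 0.961 and 0.244 CPM in RNAi libraries and 0.657 and 0.269 CPM in wild-type libraries. The 2 libraries of the first pair were higher than those of the second in either genotype, and the genotypes overlapped.

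spook (spo), the P450 of this step in embryo and ovary, had 28 and 10 counts in RNAi libraries and 15 and 4 counts in wild-type libraries. Its level was 0.897 and 0.407 CPM in RNAi libraries and 0.519 and 0.359 CPM in wild type. RNAi 2 lay between the wild-type libraries. The log2 fold changes, RNAi over wild type, were 0.53 (SE 0.74) for spo and 0.30 (SE 0.87) for sro. SE is calculated back from the F statistic of the fit, and for the chosen genes it is a description only. Without RNAi 1 they were -0.16 and -1.03, so neither direction was stable to the choice of libraries.

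spookier (spok), the paralogue that serves the larval prothoracic gland, had 1 and 2 counts in RNAi libraries, against 37 and 19 counts in wild-type libraries. The corresponding levels were 0.0320 and 0.0815 CPM in RNAi libraries and 1.28 and 1.70 CPM in wild type. RNAi 1 thus held 1 read of spok among 30252763 counts, whereas wild type 2, the shallowest library, held 19 reads among 11294882. RNAi 1 was at 0.0250 times wild type 1 (95% exact interval 0.000617 to 0.148) and RNAi 2 at 0.0478 times wild type 2 (0.00540 to 0.198). These intervals, like all those that follow, cover counting error only. The log2 fold change was -4.63 (SE 0.83). In the RNAi libraries spo thus overlapped its wild-type range while spok was nearly unread, a contrast between the paralogues that was not tested. How reads that match both genes were assigned is not given in the sources used here.

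phantom (phtm) encodes the P450 that follows, a side-chain hydroxylase that yields the ketotriol. It had 1 and 0 counts in RNAi libraries, against 36 and 15 counts in wild-type libraries, or 0.0320 and 0 CPM against 1.24 and 1.35 CPM. The wild-type libraries agreed closely, with a ratio of wild type 2 to wild type 1 of 1.08 (exact interval 0.550 to 2.02). Over both libraries of each genotype the RNAi level was 0.0141 times the wild-type level (exact interval 0.000350 to 0.0821). For the 0 counts of RNAi 2, a floor of 3 counts corresponds to 0.122 CPM, and the upper bound of its ratio to wild type 2 was 0.127. The fitted log2 fold change of -5.82 (SE 1.02) rests on a single RNAi read and ranged between -7.80 and -5.15 as libraries were left out.

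disembodied (dib), which encodes the mitochondrial P450 of the next hydroxylation, was close to undetected. It had 3 and 1 counts in RNAi libraries and 1 and 0 counts in wild-type libraries, which is at or below the floor of 3 counts per library in both genotypes. It did not pass the filter on low counts, and no fold change is given. Transcripts for this step were not detectable above the floor at this depth in either genotype.

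shadow (sad), the mitochondrial P450 that completes ecdysone, had 2 and 4 counts in the libraries with RNAi, against 23 and 12 counts in wild-type libraries. Its levels were 0.0641 and 0.163 CPM in RNAi libraries and 0.795 and 1.08 CPM in wild type. As for spok and phtm, the higher RNAi value was under the lower wild-type value. The within-pair ratios were 0.0806 (exact interval 0.00921 to 0.326) and 0.151 (0.0356 to 0.500) for pairs 1 and 2. The log2 fold change was -3.01 (SE 0.84).

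shade (shd) encodes the hydroxylase that converts ecdysone into the active hormone in target tissues, and per kilobase it was the most abundant of the enzymes in every library. It had 91 and 213 counts in RNAi 1 and 2, against 478 and 428 counts in wild type 1 and 2. In CPM these were 2.91 and 8.68 in RNAi libraries and 16.5 and 38.4 in wild-type libraries. The library of the second pair was higher than that of the first in each genotype, with a ratio of RNAi 2 to RNAi 1 of 2.98 (exact interval 2.32 to 3.85) and of wild type 2 to wild type 1 of 2.32 (2.03 to 2.65).

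Libraries of the same genotype thus differed in shd by more than counting error, yet the ratios between genotypes within the pairs had intervals that overlapped. RNAi 1 was at 0.176 times wild type 1 (exact interval 0.139 to 0.221), and RNAi 2 at 0.226 times wild type 2 (0.191 to 0.267). The log2 fold change was -2.24 (SE 0.66). It was -1.48 without wild type 2 and -3.28 without RNAi 2, the ends of its range as libraries were left out.

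**Figure D2:**
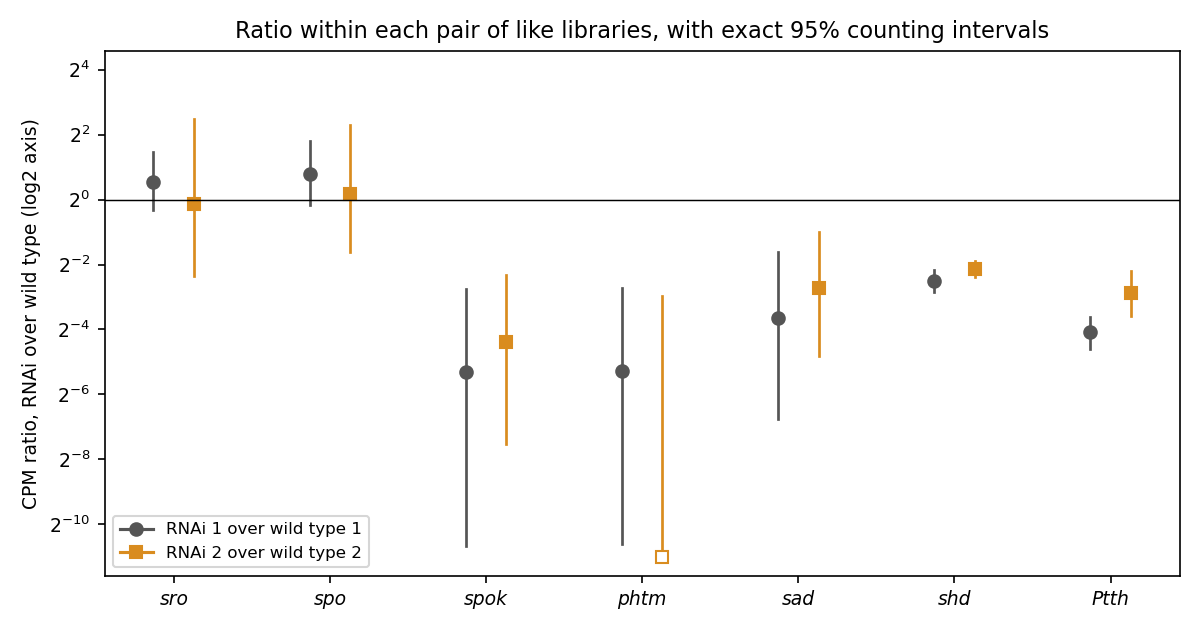
Ratio of CPM, RNAi over wild type, on a log2 axis for the 7 genes with a usable ratio, within the pair RNAi 1 and wild type 1 (circles) and the pair RNAi 2 and wild type 2 (squares). Lines are exact 95% intervals for counting error, the open square marks phtm with 0 counts in RNAi 2, and lower ends are drawn no further than the open square. Intervals of spok, phtm, sad, shd and Ptth lie below 1 in both pairs, while those of sro and spo include 1. The set was chosen by these same counts, so the intervals are a description and no test.

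Ptth, the prothoracicotropic hormone gene, known as a product of a few larval brain neurons, had 37 and 25 counts in RNAi 1 and 2, against 583 and 83 counts in wild type 1 and 2. The levels were 1.19 and 1.02 CPM in RNAi libraries and 20.2 and 7.45 CPM in wild-type libraries. The RNAi libraries were alike (ratio of RNAi 2 to RNAi 1 0.860, exact interval 0.496 to 1.47), while wild type 2 was at 0.369 times wild type 1 (0.290 to 0.466). The size of the difference between genotypes therefore depended on the wild-type library. RNAi 1 was at 0.0588 times wild type 1 (0.0410 to 0.0820) and RNAi 2 at 0.137 times wild type 2 (0.0838 to 0.216). The log2 fold change was -3.65 (SE 0.58), and -2.77 without wild type 1. Ptth and shd varied in opposite directions between the wild-type libraries, Ptth being higher in wild type 1 and shd in wild type 2.

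Per kilobase of exon, shd and Ptth led in both genotypes. In RNAi libraries mean RPKM was 1.92 ± 1.35 for shd and 0.977 ± 0.104 for Ptth (SD, n = 2), and these overlapped. sro at 0.522 ± 0.439 RPKM and spo at 0.262 ± 0.139 RPKM followed (SD, n = 2), overlapping each other. They stood above sad at 0.0640 ± 0.0395 RPKM, dib at 0.0346 ± 0.0198 RPKM, spok at 0.0321 ± 0.0198 RPKM and phtm at 0.00727 ± 0.0103 RPKM (SD, n = 2). Of these neighbours sad overlapped dib and dib overlapped spok, and phtm, with 1 read in all, was not separable from spok.

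The order was different in wild-type libraries, where Ptth had 12.2 ± 7.97 RPKM and shd 9.10 ± 5.13 RPKM (SD, n = 2). Ptth was the higher in wild type 1 and shd in wild type 2. The next levels were 0.844 ± 0.170 RPKM for spok, 0.588 ± 0.0324 RPKM for phtm, 0.528 ± 0.112 RPKM for sad and 0.401 ± 0.238 RPKM for sro (SD, n = 2). Of these neighbours, phtm overlapped sad and sad overlapped sro. spo and dib came last, at 0.176 ± 0.0454 RPKM and 0.00875 ± 0.0124 RPKM (SD, n = 2). Over all 4 libraries the mean RPKM of shd and Ptth exceeded that of 64.2% and 66.7% of annotated protein-coding genes in the table, while that of dib exceeded 11.5%.

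**Figure D3:**
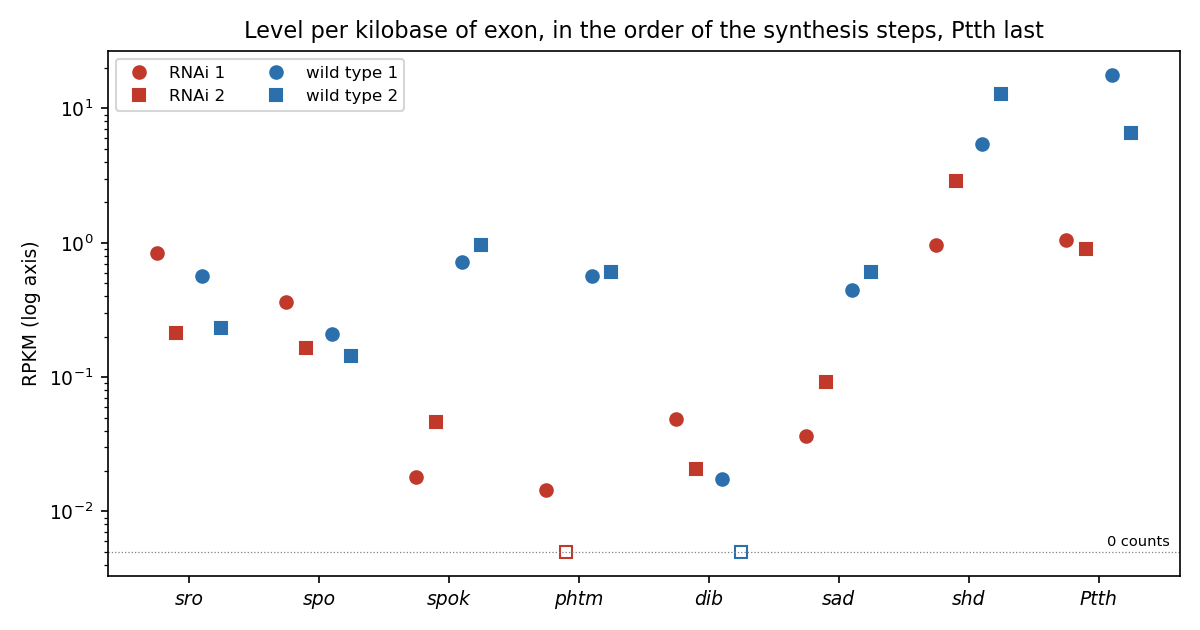
Level of each gene in RPKM (log axis) in the 2 RNAi and 2 wild-type libraries, with the enzymes in the order of their steps and Ptth last. Open symbols mark 0 counts and are drawn at an arbitrary low value. In wild-type libraries shd and Ptth lie between 5.48 and 17.9 RPKM and all other genes below 1.

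The genes lie apart in the genome. In the BDGP6 annotation phtm is on the plus strand of the X chromosome at 18685766 to 18688433, and spok on the plus strand of 3R at 3322810 to 3354486. The minus strand of 3L carries spo at 5590083 to 5592571, and its plus strand carries shd at 14614458 to 14622205 and dib at 4062292 to 4064551. On the plus strand of 3R are sad at 11877235 to 11879754 and sro at 29794597 to 29795805, and Ptth is on the minus strand of 2L at 575711 to 576896. The 5 genes with lower counts are therefore spread over X, 3R, 3L and 2L.

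The nearest gene of the count table without overlap was read for each of these 5. Cyp18a1, whose P450 breaks down ecdysteroids, lies 104 bp from phtm, and had 22 and 9 counts in RNAi libraries and 21 and 5 counts in wild-type libraries, with overlap of their CPM. CG9628, 590 bp from shd, had 9.29 and 7.70 CPM in RNAi libraries and 14.0 and 9.60 CPM in wild type, lower in both RNAi libraries with a log2 fold change of -0.48 (SE 0.39, edgeR adjusted p = 1.0). CG31368, 3035 bp from sad, overlapped between genotypes at 5.54 and 16.5 CPM in RNAi libraries and 5.12 and 12.0 CPM in wild type. Pph13, 589 bp from Ptth, had 6 and 0 counts in RNAi libraries and 2 and 1 counts in wild-type libraries. Pzl, 59227 bp from spok, had 15 and 1 counts in RNAi libraries and 5 and 1 counts in wild-type libraries.

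Exons of 5 of the 8 genes overlap a gene on the opposite strand, and reads there could belong to either gene, since no strand setting is stated. The overlap was longest for dib with wit (400 bp), spo with l(3)psg2 (308 bp) and sro with Rnb (109 bp), the genes outside the group with lower RNAi counts. It was 53 bp for sad with CG6962 and 24 bp for Ptth with cold. cold had 10.2 and 10.4 CPM in RNAi libraries and 12.3 and 12.3 CPM in wild type, a log2 fold change of -0.25 (SE 0.35, edgeR adjusted p = 1.0), and CG6962 had 6.66 and 9.58 CPM in RNAi libraries and 5.67 and 7.71 CPM in wild type. CG6962 overlapped between genotypes, and phtm, spok and shd overlap no annotated gene.

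Marker genes of other tissues that can adhere to a dissected gut were read beside these levels. Ovary markers, in a list of 11 with eggshell and germline genes, summed to 84 and 14 counts in RNAi libraries and 18 and 8 counts in wild-type libraries. None of the 11 had more than 5 counts in a wild-type library, and the eggshell genes Vml and psd had 0 counts in both wild-type libraries. The most abundant, osk, had 33 and 8 counts in RNAi libraries and 5 and 4 counts in wild-type libraries. Malpighian tubule markers, a list of 5, summed to 20.5 and 52.8 CPM in RNAi libraries and 27.7 and 46.3 CPM in wild type. Their defining member Uro, the urate oxidase gene, had 10 and 0 counts in RNAi libraries and 26 and 1 counts in wild-type libraries. The other members of the list, ClC-a, Irk1, CapaR and Lkr, had higher CPM in wild type 2 than in wild type 1. Of these, CapaR and Lkr had only 8 to 17 counts in wild-type libraries. Intestine markers went both ways between these libraries. Myo61F was higher in wild type 2, at 857 CPM against 441 CPM, and Amy-p was lower, at 4309 CPM against 8639 CPM. The summed intestine list was lower in wild type 2, at 42299 CPM against 51642 CPM. ClC-a, a chloride channel gene and the most abundant of the tubule list, had 14.0 and 40.3 CPM in RNAi libraries and 21.9 and 37.2 CPM in wild-type libraries.

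Fat body markers, a list of 6, summed to 186 and 381 CPM in RNAi libraries and 197 and 204 CPM in wild type. The 7 neuron markers summed to 34.6 and 22.6 CPM in RNAi libraries and 23.0 and 22.5 CPM in wild type. elav, which marks neurons, had 5.19 and 6.52 CPM in RNAi libraries and 5.50 and 6.91 CPM in wild type. Its log2 fold change of -0.08 was the lowest of the 7, and the highest was 1.45. The 3 markers of the corpora cardiaca and allata, endocrine glands attached to the anterior gut, summed to 71.9 and 38.0 CPM in RNAi libraries and 40.9 and 24.0 CPM in wild type. Most of this was Akh, the adipokinetic hormone gene, at 61.0 and 29.3 CPM in RNAi libraries and 36.4 and 18.0 CPM in wild type. Log2 fold changes of the 3 lay between 0.36 and 1.53. The highest was that of Lst, with 6.15 and 5.18 CPM in RNAi libraries and 2.32 and 1.52 CPM in wild type. Testis and accessory gland markers, a list of 8, summed to 56 and 26 counts in RNAi libraries and 20 and 11 counts in wild-type libraries, and Mst84Da was at 0 in all. The part of any of these tissues in the levels of the synthesis genes was not tested.

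The rest of the ecdysteroid pathway was compared between genotypes with edgeR's quasi-likelihood test across all 9637 genes. These lists, too, were put together with earlier results of these data known. None of the 46 tested members of 4 pathway lists passed an adjusted p of 0.05, where 0.125% of all genes tested did. In the same lists 1 gene was at an unadjusted p under 0.05, as were 3.83% of all genes, and DESeq2 called 0, where it called 0.955% of all genes. For 46 genes these counts were near the share over all genes. With the pair of libraries as a term in the model, 7.10% of all genes were called, and 2 list members, Npc2a and MsrA. These pairs were read from the same counts and leave 1 residual degree of freedom, so p-values of that fit can be too small.

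Other genes of ecdysteroid synthesis, turnover and transport had a median log2 fold change of -0.020 over 12 tested, beside 0.0065 over all genes tested, and lay between -0.38 and 0.68. Npc2a, a sterol-binding protein of the lysosome, had 75.3 and 40.9 CPM in RNAi libraries and 37.8 and 34.8 CPM in wild type. Both RNAi values were the higher, with a log2 fold change of 0.68 (SE 0.44, edgeR adjusted p = 1.0) and, with the pair as a term, 0.63 (SE 0.18, edgeR adjusted p = 0.0317). Fdx1, a mitochondrial ferredoxin that passes electrons to P450 enzymes such as Sad and Shd, had 23.7 and 10.6 CPM in RNAi libraries and 30.1 and 14.4 CPM in wild type (log2 fold change -0.38, SE 0.55, edgeR adjusted p = 1.0).

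The electron supply of these enzymes begins with dare, the adrenodoxin reductase gene, named after its values were seen. It had 20.2 and 18.0 CPM in RNAi libraries and 20.3 and 16.1 CPM in wild type. Ecdysone oxidase, Eo, had 1.54 and 2.04 CPM in RNAi libraries and 2.66 and 1.88 CPM in wild type, with overlap. The log2 fold change of Cyp18a1 was -0.17 (SE 0.71). GstE14, the glutathione transferase noppera-bo that serves sterol handling in the prothoracic gland, had 7 and 0 counts in RNAi libraries and 1 and 0 counts in wild-type libraries and was not tested. In wild-type libraries spok and phtm thus had 15 to 37 counts each, while GstE14 and dib had 0 or 1.

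Transcriptional regulators of the enzyme genes had a median log2 fold change of -0.059 over 9 tested. ouib encodes a zinc finger protein known for activating spok in the prothoracic gland. It had 33 and 14 counts in RNAi libraries and 9 and 3 counts in wild-type libraries, a log2 fold change of 1.46 (SE 0.73, edgeR adjusted p = 1.0). Both RNAi levels of ouib were above both wild-type levels, as for 1161 of the 9637 genes tested. It passed the filter on low counts through its RNAi libraries alone, and any link to spok was not tested. ftz-f1, a nuclear receptor required for enzyme expression in the gland, had 34.3 and 35.1 CPM in RNAi libraries and 24.0 and 26.0 CPM in wild type (log2 fold change 0.47, SE 0.37, edgeR adjusted p = 1.0). Hr4, a nuclear receptor that restrains ecdysone production, overlapped between genotypes at 1.95 and 1.18 CPM in RNAi libraries and 0.484 and 1.52 CPM in wild type.

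The Ptth receptor gene tor was near the floor, with 13 and 5 counts in RNAi libraries and 4 and 4 counts in wild-type libraries, and was not tested. The kinase cascade downstream of tor, which other receptors share, had a median log2 fold change of 0.23 over 8 tested, with the ligand gene trk included. rl, the ERK kinase gene, had 65.6 and 86.6 CPM in RNAi libraries and 81.0 and 131 CPM in wild type (log2 fold change -0.48, SE 0.42, edgeR adjusted p = 1.0). Dsor1, which encodes the kinase that activates ERK, had 25.3 and 31.6 CPM in RNAi libraries and 20.7 and 24.8 CPM in wild type. trk, a ligand gene of Torso in the embryo, had 51 and 16 counts in RNAi libraries and 29 and 4 counts in wild-type libraries.

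The ecdysone receptor and its response genes had a median log2 fold change of 0.16 over 17 tested. EcR, the receptor, had 12.0 and 11.8 CPM in RNAi libraries and 9.99 and 19.4 CPM in wild type, and its partner usp had 27.2 and 36.0 CPM in RNAi libraries and 26.9 and 32.5 CPM in wild type. Their log2 fold changes were -0.30 (SE 0.43) and 0.09 (SE 0.39). MsrA, the methionine sulfoxide reductase gene first found as the ecdysone-induced Eip71CD, was lower in both RNAi libraries, with 126 and 173 CPM in RNAi and 315 and 401 CPM in wild type. Its log2 fold change was -1.26 (SE 0.40, edgeR adjusted p = 0.807) and, with the pair as a term, -1.27 (SE 0.18, edgeR adjusted p = 4.22e-06).

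Other response genes with the smallest p had higher RNAi values. Eip78C, a nuclear receptor gene, had 2.88 and 3.83 CPM in RNAi libraries and 1.14 and 2.51 CPM in wild type (log2 fold change 0.93, SE 0.52, edgeR adjusted p = 1.0). ImpL2, an ecdysone-inducible gene whose product binds insulin-like peptides, had 9.77 and 11.9 CPM in RNAi libraries and 8.40 and 5.11 CPM in wild type (log2 fold change 0.67, SE 0.41, edgeR adjusted p = 1.0). Both RNAi values were above both wild-type values for each gene, and neither passed the test.

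**Figure D4:**
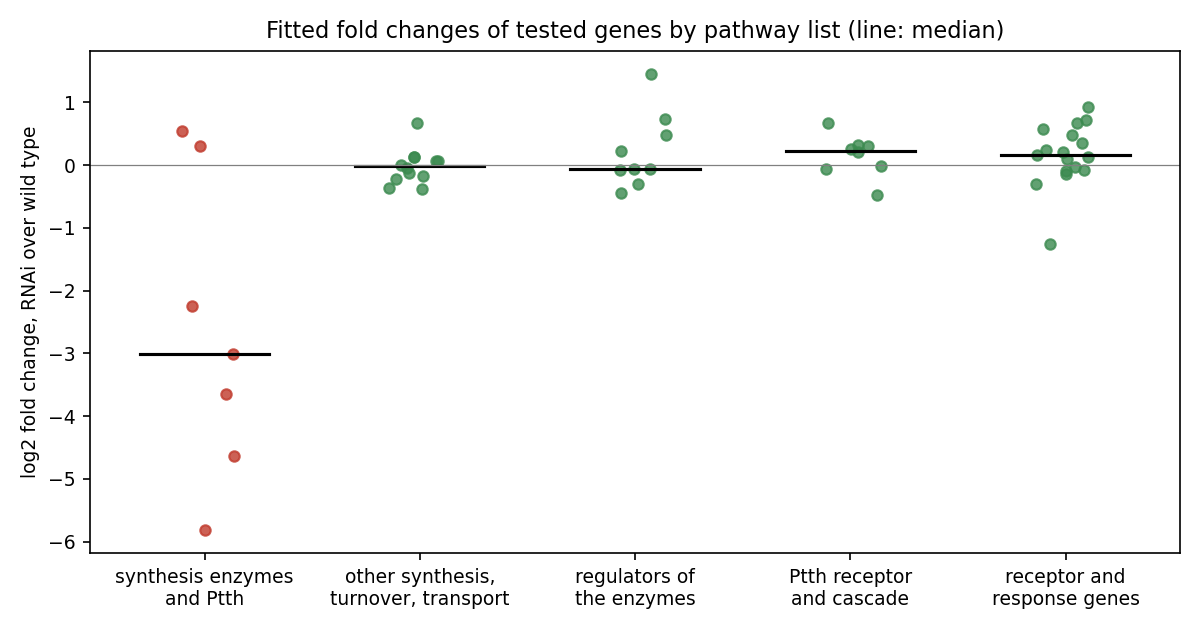
Fitted log2 fold change, RNAi over wild type (y axis), of tested genes in the set of synthesis enzymes with Ptth and in 4 lists of other pathway genes. Points are genes and lines are medians; the first group was chosen for its low values, and the medians of the other lists lie between -0.059 and 0.23.

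**Figure D5:**
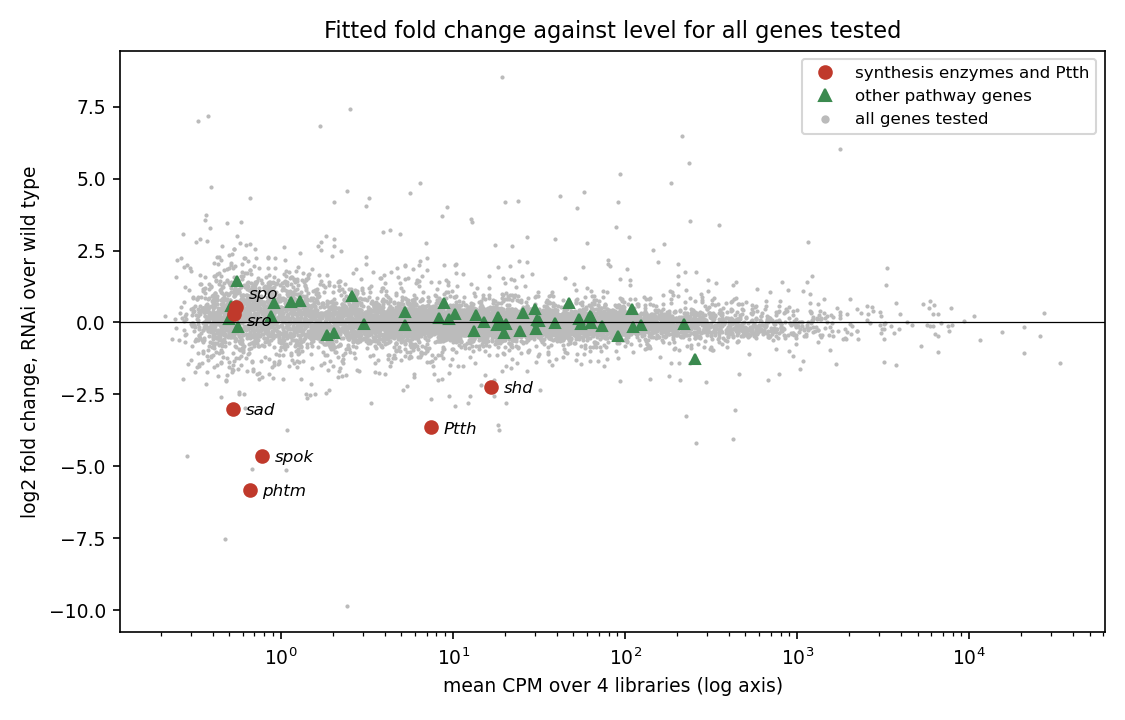
Fitted log2 fold change, RNAi over wild type (y axis), against mean CPM over the 4 libraries (log axis) for all 9637 genes tested. The synthesis enzymes and Ptth are circles and other pathway genes are triangles. phtm, spok and sad lie at the low end of expression, below a mean of 1 CPM, and shd and Ptth lie further right.

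Genes whose profile over the 4 libraries was most like that of shd were sought among 2948 tested genes with a mean CPM within 2-fold of it, by the Euclidean distance between centred log2 CPM profiles. The nearest were Pepck2, of the phosphoenolpyruvate carboxykinase family (distance 0.737), the gut serine protease gene Jon66Cii (0.745) and the peroxiredoxin gene Prx6c (0.822), beside a median distance of 2.68. Pepck2 had 2.63 and 7.33 CPM in RNAi libraries and 25.9 and 32.8 CPM in wild type. Jon66Cii had 6.98 and 14.1 CPM in RNAi libraries and 20.6 and 86.3 CPM in wild type. Prx6c had 1.95 and 3.50 CPM in RNAi libraries and 13.9 and 18.3 CPM in wild type. Like shd, each was lower in both RNAi libraries and higher in the second library of either genotype, which restates how these genes were sought.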

How the data were processed

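RNA of dissected adult intestines was sequenced in 4 libraries. The deposited values are raw read counts per gene, 1 column per library, without normalization, and STAR, FastQC and the BDGP6 build appear in the submitters' processing notes. How reads were counted, with which strand setting and annotation, is not given in the sources used here. Of 17510 identifiers, 17405 matched a symbol; a BDGP6 annotation gave positions and exon lengths.

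Counts were fitted in R 4.3.3 with edgeR 4.0.16 (filterByExpr with a minimum count of 10, TMM, robust quasi-likelihood test, 9637 genes) on genotype over all 4 libraries, with Benjamini-Hochberg adjustment over all genes and a threshold of 0.05. Exact 95% count ratios are binomial. The SE of a log2 fold change is its absolute value divided by the square root of the quasi-likelihood F statistic. Alternatives were RLE factors, library size alone, no count filter, DESeq2 1.42.0, each library left out and the library pair as a term. The genes and lists were chosen with earlier results of these data known. All 9 genes were named; from each pathway list, called genes, then those with the smallest p, up to 3, plus GstE14, Cyp18a1, EcR, usp and tor. Overlapping and nearest genes, dare and the single marker genes other than Mst84Da were named after their values were seen.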

Additional observations from a re-analysis of the deposited data

How the results depend on the processing

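Over 9 alternatives the fitted values of spok, phtm, sad, shd and Ptth stayed below 0, with ranges as libraries were left out of -5.34 to -4.08 for spok and -3.77 to -2.45 for sad. Of 63 such values for the 7 tested genes, 3 changed sign: spo without RNAi 1 (-0.16), and sro without RNAi 1 (-1.03) or without wild type 2 (-0.12). Of the number of genes called over the whole table, 12 as fitted, RLE factors and library size alone each gave 14, no count filter gave 120, DESeq2 92 and the library pair as a term 684. Leaving out 1 library gave between 58 and 120 calls; the cause was not tested. Of 36 counts for the pathway lists 2 differed from 0, each 1, with the pair as a term. Longest transcripts in place of all exons moved no RPKM by more than its spread. The labels number no pairs, and the library pairs were read from the counts. Depth limits dib, spok, phtm and sad, with 0 to 4 counts in RNAi libraries. Library 2 of wild type, the shallowest, has a floor of 0.269 CPM at 3 counts.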
